A study of Tachysurus ussuriensis with 12 samples.

Results

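Gill of the Ussuri catfish (Tachysurus ussuriensis, a freshwater bagrid catfish) sampled at 24 h was compared with gill sampled at 0 h in a study of acute salinity stress. The comparison takes 6 of the 12 RNA-seq libraries of the series, 3 of gill at 24 h and 3 of gill at 0 h, chosen by the labelled tissue and time. The other 6 libraries are of kidney at the same times. The labels state no salinity, strain or age, and do not say that the libraries of a group are of different fish. The p-values therefore rest only on the spread among these samples, which may be technical. The labels name no gill group kept for 24 h without salinity stress, so an effect of salinity and other changes over 24 h cannot be told apart.

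The fish gill is the site of gas exchange, ammonia excretion and ion exchange with the water. In freshwater its ionocytes take up sodium, chloride and calcium against the gradient, whereas in seawater they secrete sodium chloride. A salinity change is known in many fish to alter ion transporters, tight junction proteins, water channels and cell volume regulation in gill epithelium.

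Transcript levels were deposited as FPKM, fragments scaled for the length of the assembled transcript and for the mapped fragments of the library. The rows are transcripts assembled from the reads, and the deposited table does not pair their IDs with gene names. The tissue could therefore not be checked against gill markers, and transcripts are described by their rank in abundance, except for 4 whose IDs are given. Rank 1 is the transcript with the highest mean log2(FPKM + 1) over the 6 gill libraries. Of 84875 transcripts, 61505 (72.5%) reached an FPKM of 1 in 3 or more of the 6 gill libraries and were tested. Summed FPKM was 680159, 672918 and 689838 in the libraries of 24 h, against 714003, 689819 and 701432 in those of 0 h. Sequencing depth relative to the mean of the 6, read from the steps between low values, was 0.964, 1.08 and 0.983 at 24 h, against 1.01, 1.09 and 0.896 at 0 h. The absolute depth is unknown.

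Libraries of the same time were more alike than libraries of different times, with 1 library in between. Over tested transcripts, log2(FPKM + 1) correlated at r = 0.900 to 0.908 among the libraries of 24 h and at 0.887 to 0.905 among those of 0 h. Between times the correlation was 0.855 to 0.883. Gill 0 h replicate 2 correlated at 0.875 to 0.883 with the 24 h libraries and at 0.887 with both other libraries of 0 h, so it lay nearly as close to the other time as to its own. The other 0 h libraries correlated at 0.855 to 0.860 with those of 24 h.

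The most abundant gill transcripts kept their order of magnitude, and none of the 10 most abundant passed the test. The transcript of rank 1 had 10793, 9764 and 15437 FPKM at 24 h, against 12881, 11676 and 9025 FPKM at 0 h. Its groups overlapped, and 24 h replicate 3 was the highest of all. In kidney it had between 4.19 and 36.0 FPKM, so its abundance was a feature of the gill libraries. Rank 7 showed one of the smallest differences, with 3672, 3723 and 3757 FPKM at 24 h, against 3711, 3811 and 3859 FPKM at 0 h. The largest fitted change of the 10 was at rank 8, with 3695, 3006 and 3311 FPKM at 24 h, against 2332, 2468 and 2306 FPKM at 0 h. Its groups did not overlap, and its log2 change of 0.49 (SE 0.13) was not called (limma adjusted p = 0.135). The groups did not overlap for 6 of these 10 transcripts, 3 higher and 3 lower at 24 h, where 23.5% of all tested transcripts did not overlap. That share was 55.0% among the 109 tested transcripts with a mean of 500 FPKM or more.

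**Figure D1:**
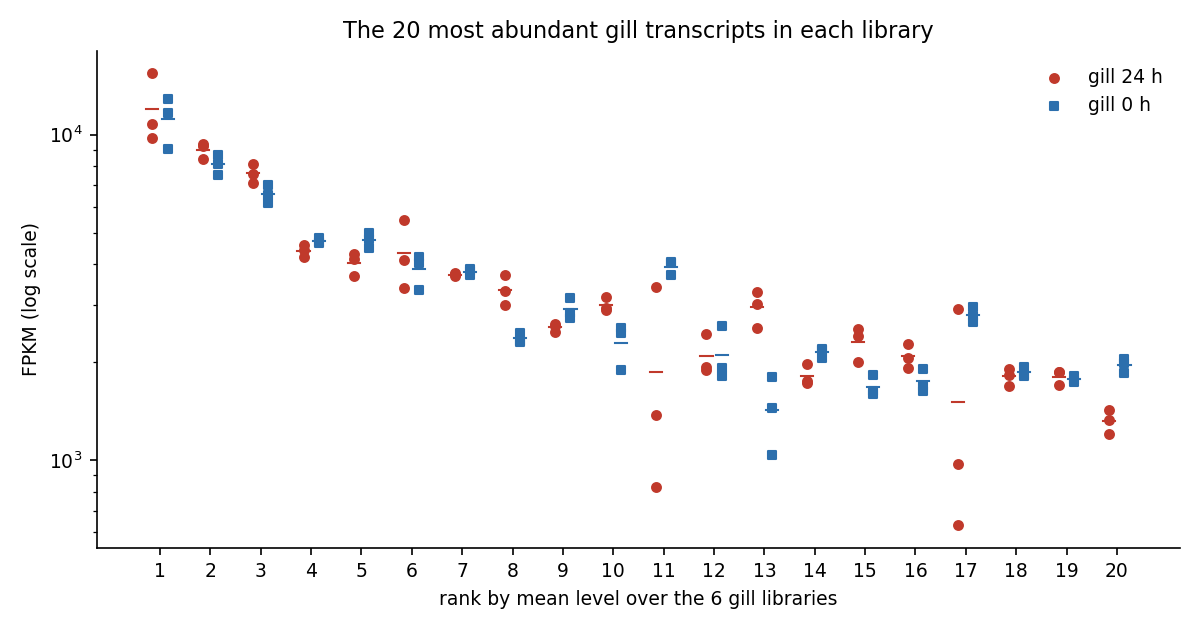
FPKM of the 20 most abundant gill transcripts on a log axis, by rank, in each of the 3 libraries of 24 h (circles) and the 3 of 0 h (squares); short lines are group means. Most pairs of groups lie close together, while at ranks 11 and 17 the libraries of 24 h spread widely, with 24 h replicate 3 beside the 0 h libraries.

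Just below these, fitted changes of at least 2-fold were frequent, but few of them were called. Among the 100 most abundant transcripts, 15 had a fitted change of at least 1 on the log2 scale, or 15%, where 5.65% of all tested transcripts did. Of the 15, 12 were lower and 3 higher at 24 h, and the groups did not overlap in 8 of the 12 and in all 3, yet only 3 of the 15 were called. The transcript of rank 11 had 1377, 826 and 3413 FPKM at 24 h, against 4075, 3711 and 4022 FPKM at 0 h. Rank 17 followed the same order of libraries at 24 h, with 977, 631 and 2923 FPKM, against 2953, 2663 and 2783 FPKM at 0 h. In both, 24 h replicate 3 stood near the 0 h level and the other libraries of 24 h far under it. Their log2 changes of -1.32 (SE 0.47) and -1.20 (SE 0.52) were not called (limma adjusted p = 0.226 and 0.300). Of the 12 transcripts lower at 24 h, 24 h replicate 3 was the highest 24 h library in 7 and 24 h replicate 2 the lowest in 10. An opposite direction was seen at rank 13, with 3010, 2549 and 3283 FPKM at 24 h, against 1443, 1806 and 1037 FPKM at 0 h. Its groups did not overlap, and its log2 change of 1.07 (SE 0.22) was not called either (limma adjusted p = 0.0810). Both directions were thus found in transcripts that kidney held at low levels, at most 7.22 FPKM for rank 11, 5.87 for rank 17 and 15.3 for rank 13. This was not general: 6 of the 15 had a mean kidney level under 10 FPKM. Kidney held 195 to 546 FPKM of rank 32, which was lower in gill at 24 h, and 217 to 678 FPKM of rank 83, which was higher.

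The transcripts called among the 100 most abundant were those of ranks 26, 79 and 90. TRINITY_DN19658_c0_g1_i1_1, of rank 26, was the most abundant transcript that rose, with 2422, 2041 and 1779 FPKM at 24 h, against 773, 938 and 787 FPKM at 0 h. All libraries of 24 h lay well above those of 0 h, and the log2 change was 1.31 (SE 0.15; limma adjusted p = 0.0272). In kidney it had 14.3 to 26.2 FPKM. TRINITY_DN27545_c0_g1_i2_1, of rank 79, was the most abundant that fell, with 393, 361 and 420 FPKM at 24 h, against 945, 925 and 1069 FPKM at 0 h. Its libraries of each time lay close together, the groups were far apart, and the log2 change was -1.32 (SE 0.10; limma adjusted p = 0.0148). In kidney it had at most 2.43 FPKM. The call at rank 90 had 345, 420 and 358 FPKM at 24 h, against 736, 861 and 680 FPKM at 0 h, and it also fell (log2 change -1.02, SE 0.13; limma adjusted p = 0.0318). Kidney held 60.2 to 113 FPKM of it. These 3 calls among 100 compare with 0.901% of all tested transcripts. With a gill library left out, the number called among the 100 was 0 without 24 h replicate 1, 24 h replicate 2 or 0 h replicate 1 (28, 27 and 31 unadjusted limma p-values under 0.05), 1 without 0 h replicate 3 and 5 without 0 h replicate 2. TRINITY_DN19658_c0_g1_i1_1 kept its call without 0 h replicate 2 and lost it without any 1 of the other 5 gill libraries (limma adjusted p = 0.0548 to 0.118) and with no filter on low values (0.0565; 0.00320 to 0.118 over all alternatives). The call of TRINITY_DN27545_c0_g1_i2_1 was lost without 24 h replicates 1 and 2 and 0 h replicate 1 (limma adjusted p = 0.0704, 0.0802 and 0.0697; 0.0101 to 0.102 over all alternatives). At rank 90 it was lost without each gill library but 0 h replicate 2 (limma adjusted p = 0.0852 to 0.120), with no filter (0.0561) and with quantile normalization (0.0716; 0.00374 to 0.120 over all alternatives).

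In the whole gill profile, 554 transcripts were called at 24 h against 0 h, or 0.901% of those tested, and 322 rose while 232 fell. The call was a Benjamini-Hochberg adjusted p under 0.05 in limma, fitted to the 6 gill libraries. Rising transcripts made up 0.524% and falling transcripts 0.377% of those tested. Changes of called transcripts were mostly moderate: 382 of the 554 changed at least 2-fold, the median log2 change was 1.19 among those that rose and -1.32 among those that fell, and the smallest absolute change called was 0.50. Changes of 3 or more on the log2 scale were rare, with 5 transcripts that rose and 8 that fell. Because the libraries are of whole tissue, fewer cells of a type and less RNA per cell cannot be told apart in any of these changes.

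Over all tested transcripts the profile moved little. The median log2 change was 0.02, the median absolute change 0.26, and the 5th and 95th percentiles were -0.83 and 0.77. The 1st and 99th percentiles were -1.61 and 1.29, so the tail of falls was longer. The median depends on the scaling, at 7.7e-05 with median-ratio scaling and 0.056 with equal totals. A further 3095 transcripts had a fitted change of at least 1 on the log2 scale without being called, and their median level of 3.03 FPKM was far below the 14.6 FPKM of called transcripts. Groups did not overlap in FPKM for 14441 transcripts (23.5%), 8022 higher (13%) and 6419 lower (10.4%) at 24 h, and all 554 called transcripts were among them. With median-ratio scaling 7390 were higher and 7033 lower at 24 h, with equal totals 9046 and 5547, and with quantile normalization 8748 and 6011. Unadjusted limma p-values were under 0.05 for 10605 transcripts, 17.2% of those tested.

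The number of calls rested on single libraries. It was 0 without gill 24 h replicate 1 (8430 unadjusted limma p-values under 0.05) and 0 without gill 24 h replicate 2 (8499), 86 without 24 h replicate 3, 18 without 0 h replicate 1 and 46 without 0 h replicate 3. A loss without gill 24 h replicate 1 or 2, where given for a single transcript, is thus common to all 554. Without 0 h replicate 2, the library nearest to the other time, 921 were called, 309 rising and 612 falling, so that the majority fell. A spread shared with the kidney libraries gave 834 calls over all 12 libraries (1.36%; 391 rising, 443 falling), 338 of them among the 554. Without kidney 0 h replicate 2 that shared fit gave 1955 (1103 rising, 852 falling), 504 of them among the 554.

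**Figure D2:**
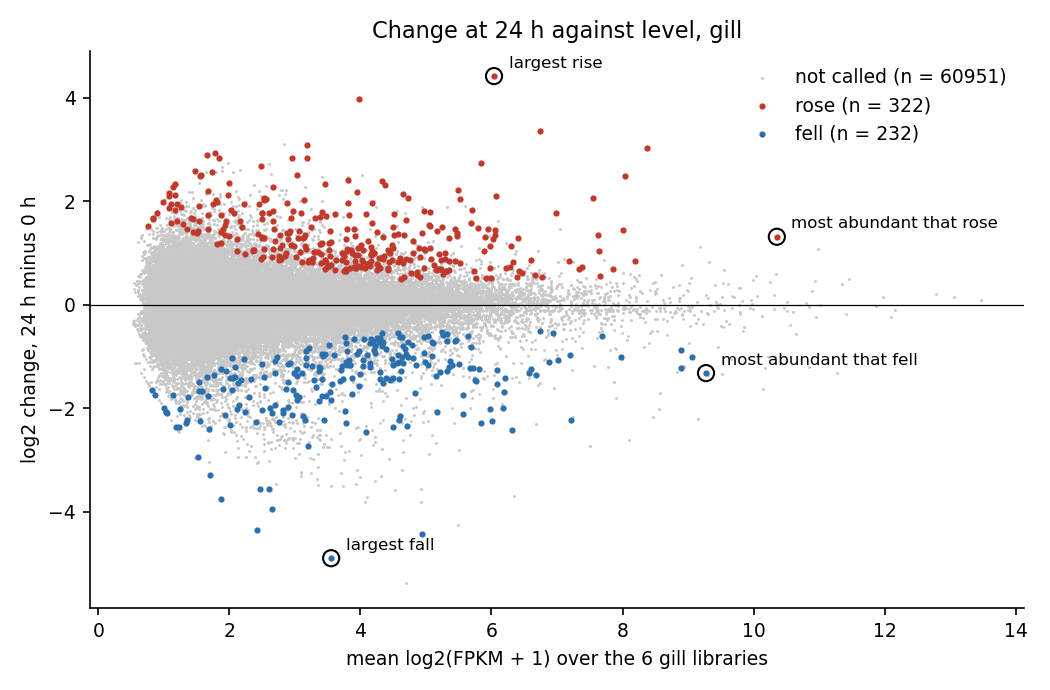
Log2 change at 24 h against 0 h (y axis) by mean log2(FPKM + 1) over the 6 gill libraries (x axis) for the 61505 tested transcripts, with the 322 that rose in red, the 232 that fell in blue and the 4 named transcripts circled. Called transcripts lie on both sides over most of the range of levels, and few lie to the right, among the most abundant.

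The share of transcripts called went up with level, as the spread between libraries of 1 time went down. Under a mean of 2 FPKM, 17 of 20236 transcripts rose and 7 fell, or 0.119%. From 10 to 20 FPKM, 82 of 6170 rose and 64 fell, or 2.37%. From 100 to 500 FPKM, 17 of 551 rose and 13 fell, or 5.44%, and at 500 FPKM or more, 2 of 109 rose and 3 fell, or 4.59%. The share called was thus similar in the upper classes. The median absolute change of all transcripts differed little between these 4 classes, at 0.29, 0.21, 0.21 and 0.28 on the log2 scale, while the median SD within a time was 0.40, 0.17, 0.14 and 0.14. The part of this spread in the number of calls was not tested. Called transcripts under 2 FPKM had a median absolute change of 1.85, against 1.02 from 100 to 500 FPKM. The pseudocount of 1 understates the change of low transcripts.

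**Figure D3:**
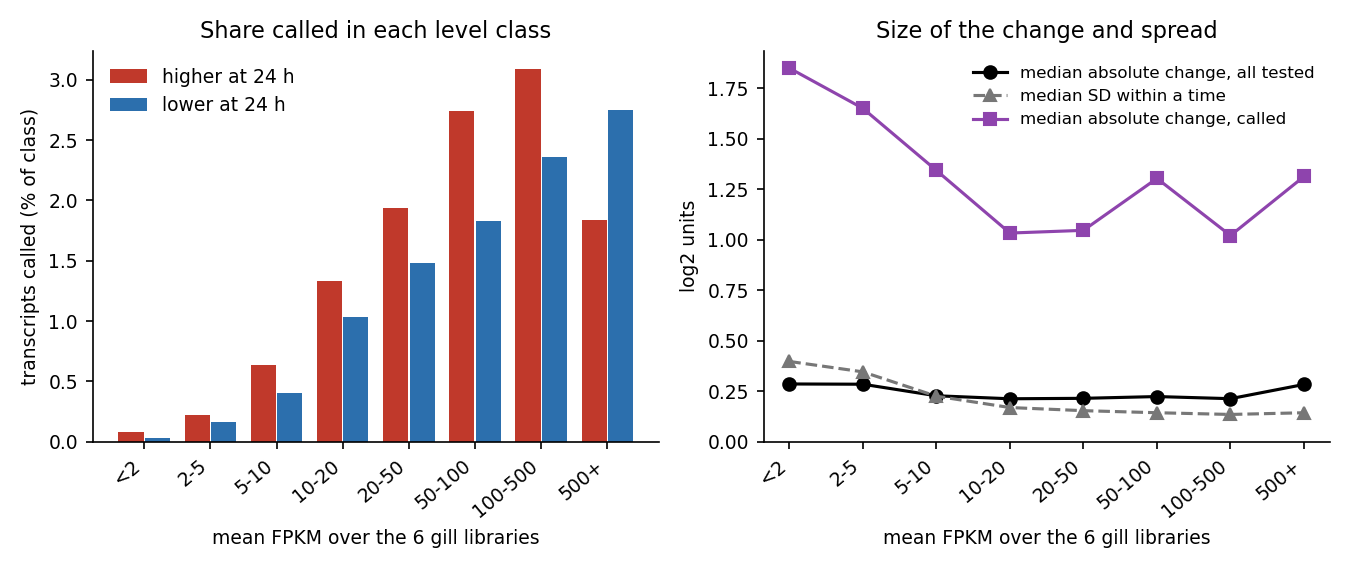
Left, transcripts called higher (red) and lower (blue) at 24 h as a percentage of each class of mean FPKM over the 6 gill libraries; right, for the same classes, the median absolute log2 change of all tested and of called transcripts and the median SD within a time. The share called goes up to 100-500 FPKM, while the median change of all transcripts stays between 0.21 and 0.29.

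Among the 1000 most abundant transcripts by rank, 26 rose and 19 fell, or 4.5% against 0.901% of all tested. The lowest mean among these 1000 was 69.9 FPKM. Because the rank is by mean log2 value, a strongly changed transcript with a higher mean FPKM can rank below them. The groups of these 1000 did not overlap in 46.8%, against 23.5% of all. This share went up with level, from 16.3% under 2 FPKM to 55.0% at 500 FPKM or more. Of these 45 calls, 25 changed at least 2-fold, and their absolute log2 changes lay between 0.51 and 3.35. The mean gill level was at least 10 times the mean kidney level in 13 of the 45, and the mean kidney level was the higher one in 7. Among all 1000 the numbers were 182 and 297. The calls numbered 0 without gill 24 h replicates 1 or 2 (303 and 319 unadjusted limma p-values under 0.05), 11 without 24 h replicate 3 and 5 each without 0 h replicates 1 and 3. Median-ratio scaling left 29. The balance of directions turned with the ranking, the libraries fitted and single libraries: 15 rose and 33 fell among the 1000 most abundant at 0 h, 46 rose and 11 fell among those at 24 h, and 16 rose and 27 fell over all 12 libraries. A ranking by 1 time favours transcripts that are high at that time, so the turn with the ranking follows in part from that choice. Without 0 h replicate 2, 22 rose and 41 fell, without 24 h replicate 3, 2 rose and 9 fell, and without 0 h replicate 3, 2 rose and 3 fell.

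Some of these abundant transcripts changed with little spread within a time. The transcript of rank 221 had 181, 180 and 172 FPKM at 24 h, against 359, 357 and 352 FPKM at 0 h, and fell: its mean was 178 ± 5.25 FPKM at 24 h, against 356 ± 3.74 at 0 h (SD, n = 3 each), and its limma adjusted p was 0.0112. Rank 185 had 397, 377 and 399 FPKM at 24 h, against 222, 212 and 216 FPKM at 0 h, and rose (log2 change 0.85, SE 0.07; limma adjusted p = 0.0156). For both, the gap between times was several times the range within either time. In the fit over 12 libraries, rank 221 also fell in kidney (log2 change -0.86, limma adjusted p = 0.00837). Kidney held 250 to 1044 FPKM of rank 185, whose kidney change was not called (log2 change 1.08, limma adjusted p = 0.0946). The largest called change among the 200 most abundant was that of rank 157, with 1082, 878 and 891 FPKM at 24 h, against 149, 95.4 and 109 FPKM at 0 h (log2 change 3.02, SE 0.18; limma adjusted p = 0.00680). It had at most 2.02 FPKM in any kidney library. None of the 3 gill calls held without gill 24 h replicate 1 or 2, where no tested transcript was called. Those of ranks 221 and 185 were also lost without gill 0 h replicate 1 (limma adjusted p = 0.0660 and 0.0752). Rank 185 was further not called without 24 h replicate 3 or 0 h replicate 3 (limma adjusted p = 0.0525 and 0.0586) or over all 12 or 11 libraries (0.148 and 0.0795).

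The list of the most abundant transcripts changed more between times than between libraries of 1 time. Libraries of 24 h shared 89 to 92 of their 100 most abundant transcripts and libraries of 0 h shared 86 to 91, whereas libraries of different times shared 73 to 85. In all 6 libraries, 69 transcripts were among the 100 most abundant. A further 9 were among them in all libraries of 24 h and in none of 0 h, 2 of which were called, namely ranks 157 and 208. Rank 208 had 554, 577 and 738 FPKM at 24 h, against 176, 68.1 and 109 FPKM at 0 h. Conversely 6 were among the 100 in all libraries of 0 h and in none of 24 h, and 4 of these were called. Among them were ranks 79 and 90, described above. Rank 111, also among the 4, had 307, 343 and 282 FPKM at 24 h, against 770, 604 and 813 FPKM at 0 h. Of all tested transcripts, 0.901% were called. The 9 and the 6 were chosen by a difference between the same libraries, so a higher share called follows in part from that choice. The transcript of rank 85 left the list without being called: it had 272, 237 and 281 FPKM at 24 h, against 1367, 512 and 2627 FPKM at 0 h (log2 change -2.22, SE 0.53; limma adjusted p = 0.111). Its libraries of 0 h differed among themselves by more than its highest 24 h library measured. Over 12 libraries, ranks 85 and 111 also fell in kidney (log2 change -3.11 and -0.98, limma adjusted p = 0.0147 and 0.0136). Ranks 111 and 208 kept their calls without 0 h replicate 2 and lost them without any 1 of the other gill libraries (limma adjusted p = 0.0741 to 0.115 and 0.0521 to 0.128), and rank 208 was not called with no filter (0.0544).

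**Figure D4:**
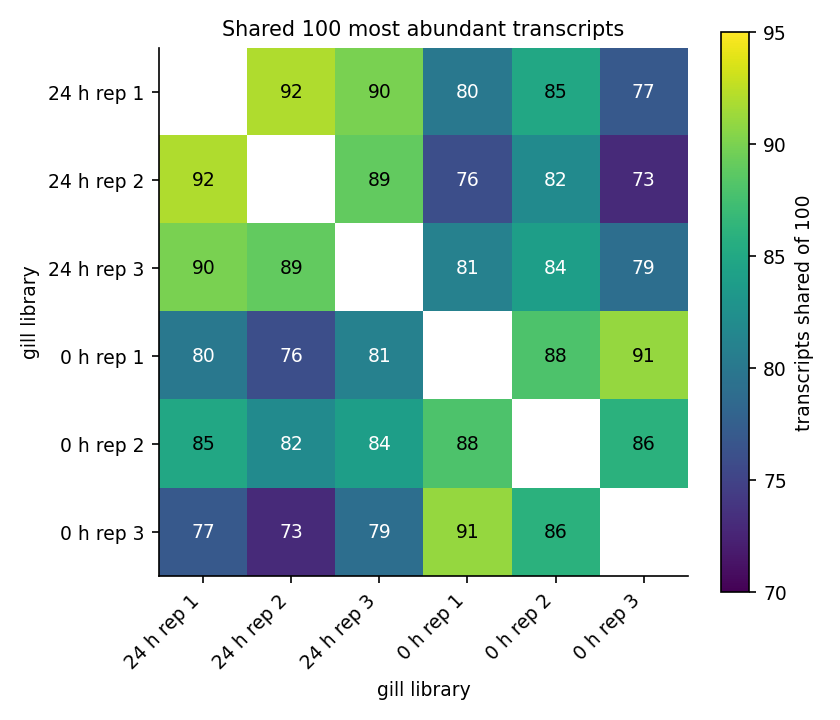
Number of transcripts that each pair of gill libraries shares among the 100 most abundant of each; rows and columns are the libraries of 24 h followed by those of 0 h. Pairs of 1 time share 86 to 92 and pairs of different times 73 to 85, with the highest between-time values in the row of 0 h replicate 2.

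The concentration of the profile in its most abundant transcripts did not differ detectably between times. The 10 most abundant transcripts of each library held 8.07%, 7.25% and 8.70% of summed FPKM at 24 h, against 7.54%, 7.74% and 7.30% at 0 h (exact permutation test, two-sided, p = 0.4). The 100 most abundant held 21.1%, 18.9% and 22.1% at 24 h, against 20.7%, 20.8% and 21.8% at 0 h (exact permutation p = 0.9). The 1000 most abundant held 41.3%, 38.7% and 42.3% at 24 h, against 41.5%, 40.6% and 42.9% at 0 h (exact permutation p = 0.6). All 3 shares overlapped between times, with 24 h replicate 2 the lowest in each. With summed FPKM (exact permutation p = 0.2) these were 4 comparisons, whose Benjamini-Hochberg adjusted p-values were 0.8 to 0.9; 3 libraries against 3 cannot give a p under 0.1.

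The difference in composition between times was larger than that within a time. Counted as the part of summed FPKM that would have to be moved to another transcript to turn a library into another, libraries of different times differed by 14.8% to 18.8%. Libraries of 24 h differed among themselves by 10.3% to 12.3% and those of 0 h by 11.8% to 14.2%, so the ranges did not overlap. Between the mean profiles of the times, this part was 13.8%. The 10 most abundant transcripts, ranked over the 6 libraries, made up 3.67% of the summed absolute differences between the mean profiles, while they held 6.92% to 8.53% of summed FPKM in single libraries. The 100 most abundant made up 17.2%, while they held 18.6% to 21.8%, and the 1000 most abundant 35.8%, while they held 38.3% to 42.0%. The called transcripts made up 8.88%. By construction of the calls, those that rose held 2.43%, 2.50% and 2.27% of summed FPKM at 24 h, against 0.914%, 0.951% and 0.909% at 0 h. Those that fell held 0.704%, 0.717% and 0.720% at 24 h, against 1.67%, 1.60% and 1.82% at 0 h.

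The largest called changes were found outside the 100 most abundant transcripts. This follows in part from the ranking by mean log2 value over both times, since a low level at 1 time lowers the rank. TRINITY_DN20352_c0_g1_i1_3, of rank 1112, had the largest rise of the called transcripts, with 305, 380 and 240 FPKM at 24 h, against 14.3, 8.82 and 18.1 FPKM at 0 h. The groups were far apart, with a log2 change of 4.42 (SE 0.27; limma adjusted p = 0.00683). In the fit over 12 libraries it also rose in kidney, to a mean of 265 FPKM at 24 h from 26.4 FPKM at 0 h. That kidney log2 change was 3.25 (limma adjusted p = 0.000849), and its difference from the gill change was not called (limma adjusted p = 0.364). TRINITY_DN25188_c0_g1_i8_2, of rank 10385, had the largest called fall, with 1.56, 0.622 and 1.39 FPKM at 24 h, against 52.7, 36.6 and 129.6 FPKM at 0 h. All libraries of 24 h were near the lower limit of tested transcripts, those of 0 h differed widely among themselves, and the log2 change was -4.90 (SE 0.45; limma adjusted p = 0.0164). In kidney it had at most 0.354 FPKM. The first call was lost without gill 24 h replicate 1 or 2 (limma adjusted p = 0.0596 and 0.0510; 8.90e-05 to 0.102 over all alternatives). The second was lost without gill 24 h replicate 1, 2 or 3 or 0 h replicate 1 (0.0751, 0.0903, 0.0574 and 0.0752; 0.000417 to 0.0988 over all alternatives).

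**Figure D5:**
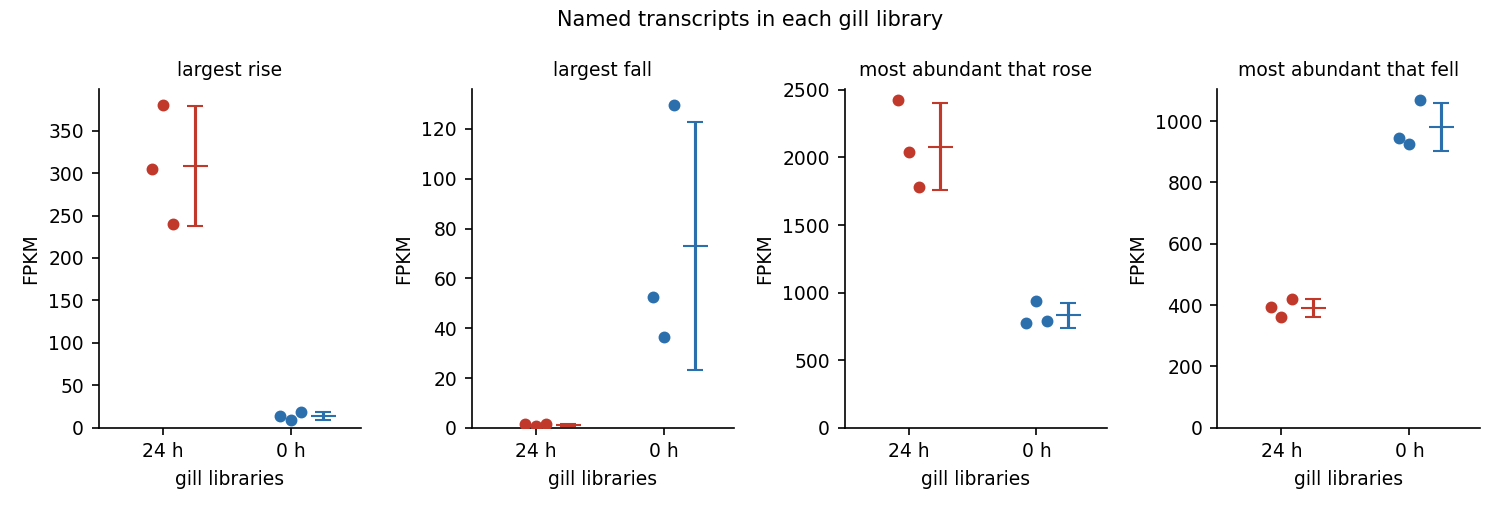
FPKM of the 4 named transcripts in each gill library (points), with the mean and SD of each group of 3 beside them; each panel has its own axis from 0. From left to right these are TRINITY_DN20352_c0_g1_i1_3, TRINITY_DN25188_c0_g1_i8_2, TRINITY_DN19658_c0_g1_i1_1 and TRINITY_DN27545_c0_g1_i2_1, and in none of them do the groups overlap.

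Other large called changes differed in how kidney behaved. The second largest rise had 45.2, 78.2 and 65.8 FPKM in gill at 24 h, against 2.27, 1.96 and 5.45 FPKM at 0 h, and in the fit over 12 libraries it rose in kidney as well (log2 change 3.72; limma adjusted p = 0.00893). The third largest rise, of rank 584, had 358, 324 and 340 FPKM in gill at 24 h, against 52.4, 22.2 and 29.4 FPKM at 0 h, and was at most 0.429 FPKM in kidney. These examples show 1 change found in both tissues, like the largest rise, and 1 in a transcript that kidney nearly lacked. The second largest fall, of rank 3184, had 4.65, 6.21 and 5.94 FPKM in gill at 24 h, against 139.8, 78.4 and 256 FPKM at 0 h, and was at most 0.984 FPKM in kidney. The fourth largest fall had 0.137, 2.22 and 0.138 FPKM in gill at 24 h, against 24.6, 18.9 and 28.7 FPKM at 0 h, while kidney held 12.4 to 31.4 FPKM. Its log2 change in gill was thus lower than in kidney, with a difference of -4.10 (SE 0.58) that passed limma over 12 libraries (adjusted p = 0.0491). None of these 4 gill calls held without any 1 of the libraries of 24 h (limma adjusted p = 0.0510 to 0.0948). They were also lost without 0 h replicate 1 except at rank 584 (limma adjusted p = 0.0729 to 0.0924), and without 0 h replicate 3 at rank 584 and for the fourth largest fall (0.0586 and 0.0926), this fall also with a pseudocount of 0.1 (0.0574).

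Few transcripts went between clear presence and a listed value of 0. At 1 FPKM or more in all libraries of 24 h and listed at 0 in all of 0 h were 22 transcripts, with group means of at most 4.22 FPKM, and 6 of them were called. In the other direction 24 were at 1 FPKM or more in all libraries of 0 h and listed at 0 in all of 24 h, with group means of at most 13.8 FPKM, and 6 of them were called. Of all tested transcripts, 0.901% were called. Both sets were chosen by the separation of the same 6 libraries, so a higher share called follows in part from that choice. Of the 24, 14 were listed at 0 in all 6 kidney libraries, and of the 22, none. How many of all tested transcripts were so listed in kidney was not counted. A listed 0 can be a low level that these libraries did not catch.

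Transcripts called in gill also tended to have kidney changes of the same sign. The labels do not say whether gill and kidney libraries came from the same fish, and the fit over 12 libraries treated all as independent. In the fit over 12 libraries, kidney changes were called for 0.512% of tested transcripts, while 38 of the 322 that rose in gill rose in kidney and none fell there. Of the 232 that fell in gill, 17 fell in kidney and 1 rose. That fit shares the spread of a transcript between tissues, and the 554 were chosen in part for a small spread in gill. A higher share called in kidney therefore follows in part from that choice. Among the 10 largest called rises in gill, the 1st, 2nd, 7th and 9th also rose in kidney (limma adjusted p = 0.000849 to 0.00893). The others were not called there, nor were any of the 10 largest called falls. Of these falls, the 1st, 2nd, 3rd, 7th and 9th had at most 0.984 FPKM in any kidney library, and the 10th at most 1.74 FPKM. Such levels leave a kidney fall little room, so the missing calls cannot show that these falls were confined to gill. Kidney held 12.4 to 31.4 FPKM of the 4th and 6.88 to 29.6 FPKM of the 5th. The difference between the gill and kidney changes itself was called for 20 of the 554, where 0.0358% of all tested transcripts were. The 554 were chosen for their gill change, which is part of this difference, so a higher share follows in part from that choice. Several of the 20 were transcripts that kidney nearly lacked, such as that of rank 584, with at most 0.429 FPKM there. The median kidney log2 change was 0.41 for transcripts that rose in gill and -0.27 for those that fell, against 0.08 over all tested. The mean gill level was at least 10 times the mean kidney level in 53 of the 322 that rose and 54 of the 232 that fell, and in 9.49% of all tested. The mean kidney level was the higher one in 98 of the 322 and 48 of the 232. Its share over all tested transcripts was not counted, and among the 1000 most abundant it was the higher one in 297. Called transcripts had a median level of 14.6 FPKM, against 2.97 FPKM for all tested, and the shares were not matched for level.

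The balance of rises and falls varied with the last number of the transcript ID (1 to 4), which the sources used here do not explain. Among IDs ending in 1, 118 rose and 24 fell; among those ending in 2, 77 rose and 98 fell. For the ending 3 the numbers were 52 and 45, and for the ending 4 they were 75 and 65. Those called in either direction were 0.923%, 1.04%, 0.771% and 0.836% of the 15389, 16804, 12575 and 16737 tested with endings 1 to 4, near the 0.901% of all. The median log2 change of all tested transcripts was 0.12, -0.07, 0.02 and 0.01 for endings 1 to 4. Transcripts ending in 1 held 24.2%, 26.3% and 24.6% of summed FPKM at 24 h, against 23.4%, 23.5% and 23.1% at 0 h, with no overlap. The part of these numbers in the direction of change was not tested. Within an ending, every row carries its own assembler gene ID, so no call is repeated by a second isoform with the same ending. Repeats of a gene ID across endings were not checked. In 7 assembler clusters, groups of IDs of 1 ending that differ in the gene and isoform numbers, 2 transcripts each were called. Both moved the same way in all 7.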

How the data were processed

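The authors deposited FPKM values, 1 column per library, for transcripts with IDs of the form that the assembler Trinity writes. Per the submitters' processing notes reads were trimmed with Trimmomatic; which aligner and counter were used is not stated there. FPKM values are not counts, so no count model was fitted. Libraries were grouped by tissue and time in the labels. Transcripts that reached an FPKM of 1 in 3 or more of the 6 gill libraries were tested on log2(FPKM + 1) with limma 3.58.1 in R 4.3.3 (group means, eBayes with a mean-variance trend, 4 residual degrees of freedom), two-sided, with Benjamini-Hochberg adjustment over all 61505 and a threshold of 0.05. Fold changes are on that scale. The spread that limma uses for a transcript, and so its SE and p-value, is drawn in part from other transcripts of similar level. Kidney changes, and their difference from gill changes, came from 4 group means fitted to all 12 libraries. Shares of summed FPKM were compared with exact permutation tests.

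Relative depth was read from the most frequent ratio of low values between each of the 15 pairs of gill libraries, over 11963 transcripts listed at 0 in at least 4 libraries of the series, with a largest residual of 0.01 on the log2 scale. The fit was run on simulated data with independent noise, where the median size of fitted changes was checked and the number of false calls was not. The comparison, its members and the rules were chosen with earlier results of these data known. Named transcripts are the largest rise and fall among called transcripts whose groups do not overlap, and the most abundant called transcript in each direction. Alternatives covered the pseudocount, the filter, the scaling, the libraries fitted, library weights, a replicate block, the ranking and leaving out each gill library. No gene lists were tested, since the IDs have no gene names.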

Additional observations from a re-analysis of the deposited data

Results flagged for a closer look

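The change at 24 h differed between tissues for 20 of the 554 transcripts called in gill, by a limma test of the difference over all 12 libraries (adjusted p under 0.05 over all 61505 tested transcripts, of which 22, or 0.0358%, were called). The gill change lay above the kidney change in 6 of the 20, all of which rose in gill, and below it in 14, all of which fell in gill. Unadjusted limma p-values were under 0.05 for 291 of the 554. Without kidney 0 h replicate 2 the number was 27, with 14 above and 13 below. Because the 554 were chosen for their gill change, the number called and the side on which the difference lies are partly fixed by that choice. Among the 20 were the 1st, 2nd, 3rd, 7th and 9th largest called falls, with at most 0.984 FPKM in any kidney library. So were the 3rd, 4th and 5th largest called rises, with at most 2.02 FPKM there. Such low levels leave a kidney fall little room. Of the 4th largest fall, also among the 20, kidney held 12.4 to 31.4 FPKM.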

How the results depend on the processing

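The number of transcripts called (554) was 241 with no filter on low values, 926 with an FPKM of 1 or more required in all 6 gill libraries, 834 with the fit over 12 libraries and 1955 over 11. Without single gill libraries it ranged from 0 to 921. Among the 1000 most abundant (45) it was 19, 70, 43 and 106 under those settings and 29 with median-ratio scaling, and 0 to 63 without single libraries. Among the 100 most abundant (3) it was 1 with no filter, 11 over 11 libraries and 5 when ranked by the 0 h libraries, and 0 to 5 without single libraries. The cause of these shifts was not tested. A pseudocount of 0.1, equal totals, quantile normalization and library weights kept the total within 1.5 times (405 to 816). Rising transcripts were 58.1% of the calls, and 56.0% to 63.2% under the 3 scalings, with 46.9% over 12 libraries and 33.6% without gill 0 h replicate 2.

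The number whose groups do not overlap was 19675 to 22088 without single libraries, where fewer libraries make separation easier. The difference in the share of the 100 most abundant, -0.370 percentage points, ranged from -1.06 to 0.519, the last without gill 24 h replicate 2, and that of the 10 most abundant (0.482) from 0.134 to 0.861.

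With the replicate block, which in gill is also a block by the number in the library name, limma called 1 transcript (9872 unadjusted p-values under 0.05), 0 in the 1000 most abundant (391) and 0 in the 100 most abundant (36). None of the 554 gill calls was made with it; the kidney changes and the differences between tissues were not refitted with it. Deviations of same-numbered libraries from their group means correlated at -0.03 to 0.01. Whether the number pairs the samples was not tested further, and the labels do not say. The depth of single FPKM values is unknown and most limits transcripts of low level.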
